A study of Mus musculus with 8 samples.

Results

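Immediate early genes are transcribed within minutes of a stimulus without new protein synthesis, and 10 of them were followed here in mouse skin: Fos, Fosb, Fosl2, Jun, Junb, Atf3, Egr1, Egr2, Nr4a1 and Zfp36. They were chosen by name, with earlier results of these data known. Each matched 1 row of the 56748 genes in the deposited table, and all 10 were among the 18495 genes that passed the filter on low counts. RNA of whole skin came from 8 male mice aged 35 weeks that received no treatment. The NPY-tet group held 3 mice of the strain B6;129S4-Npytm2Rpa/J, homozygous for the tet allele of Npy (NPY tet/tet), and the WT group held 5 wild-type siblings (NPY +/+). The labels name no tetracycline compound and no tissue-restricted driver for the allele. Whole skin mixes epidermis, hair follicles, dermis, fat and the muscle layer below, and in such bulk RNA a change in the number of cells of a type and a change in RNA per cell cannot be told apart.

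Fos and Jun proteins are basic leucine zipper factors that pair to form AP-1, which binds short DNA elements near genes of growth, wound repair and inflammation. Fos proteins need a partner, whereas Jun proteins can also pair with themselves. Egr proteins are zinc finger factors, Nr4a1 is an orphan nuclear receptor, and Zfp36 binds AU-rich elements in messenger RNA, including those of cytokines and of immediate early genes, and speeds their decay. In skin these genes respond to wounding, stretch, ultraviolet light, growth factors and the handling of tissue, and their transcripts are short-lived.

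Npy, the modified gene, stood at 0.159 to 0.502 CPM (CPM here is the count scaled to a common library size with TMM factors) in the WT mice and at 299.7 to 321.5 CPM in the NPY-tet mice. Libraries held 31370433 to 47495565 counts. Ribosomal RNA genes took over 6.5% of the counts in WT replicates 1, 2, 3 and 5 and NPY-tet replicate 1, and under 0.08% in WT replicate 4 and NPY-tet replicates 2 and 3 (the labels name no such batch). Keratin, collagen and muscle markers were abundant in every library. Summed hair follicle markers ranged from 3.65 to 4453 CPM, with all 8 of them detected.

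Across the 10 genes, 9 had a higher fitted value in NPY-tet skin and 1, Nr4a1, a lower one. The median log2 fold change was 0.48, against 0.00 over all genes tested, where 50.7% of genes had a fitted value above 0. By the quasi-likelihood test of edgeR with Benjamini-Hochberg adjustment over all genes, 0 of the 10 passed an adjusted p of 0.05 (adjusted p 0.298 to 0.844), as did 0.00541% of all genes, which is Npy alone. At an unadjusted p under 0.05 there were 7, all higher, against 5.98% of all genes in either direction and 2.43% higher. A fitted log2 fold change of at least 1 was reached by 3 of the 10, against 2.25% of all genes. DESeq2 called 3 of the 10, Fos, Fosb and Egr1, all higher, against 0.368% of all genes in either direction and 0.135% higher, while limma-voom and limma on log2 FPKM called 0. Every NPY-tet mouse lay above every WT mouse for 4 of the 10, Fos, Junb, Egr1 and Zfp36, against 1.81% of all genes, and 0 of the 10 had every NPY-tet mouse below every WT mouse, against 1.98%. Because the 10 genes were chosen with earlier results known, these shares are a description, with no test of the list. The same holds for the gene lists below.

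The mice of the NPY-tet group were not alike. NPY-tet replicate 1 lay above all WT mice for 9 of the 10 genes and below all of them for Nr4a1. Replicate 2 lay above all WT mice for 8 genes, and replicate 3 for 4. Replicate 3 was the lowest of its group for 8 of the 10. Among WT mice, replicate 5 was the highest for 5 genes and replicate 3 the lowest for 4.

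**Figure D1:**
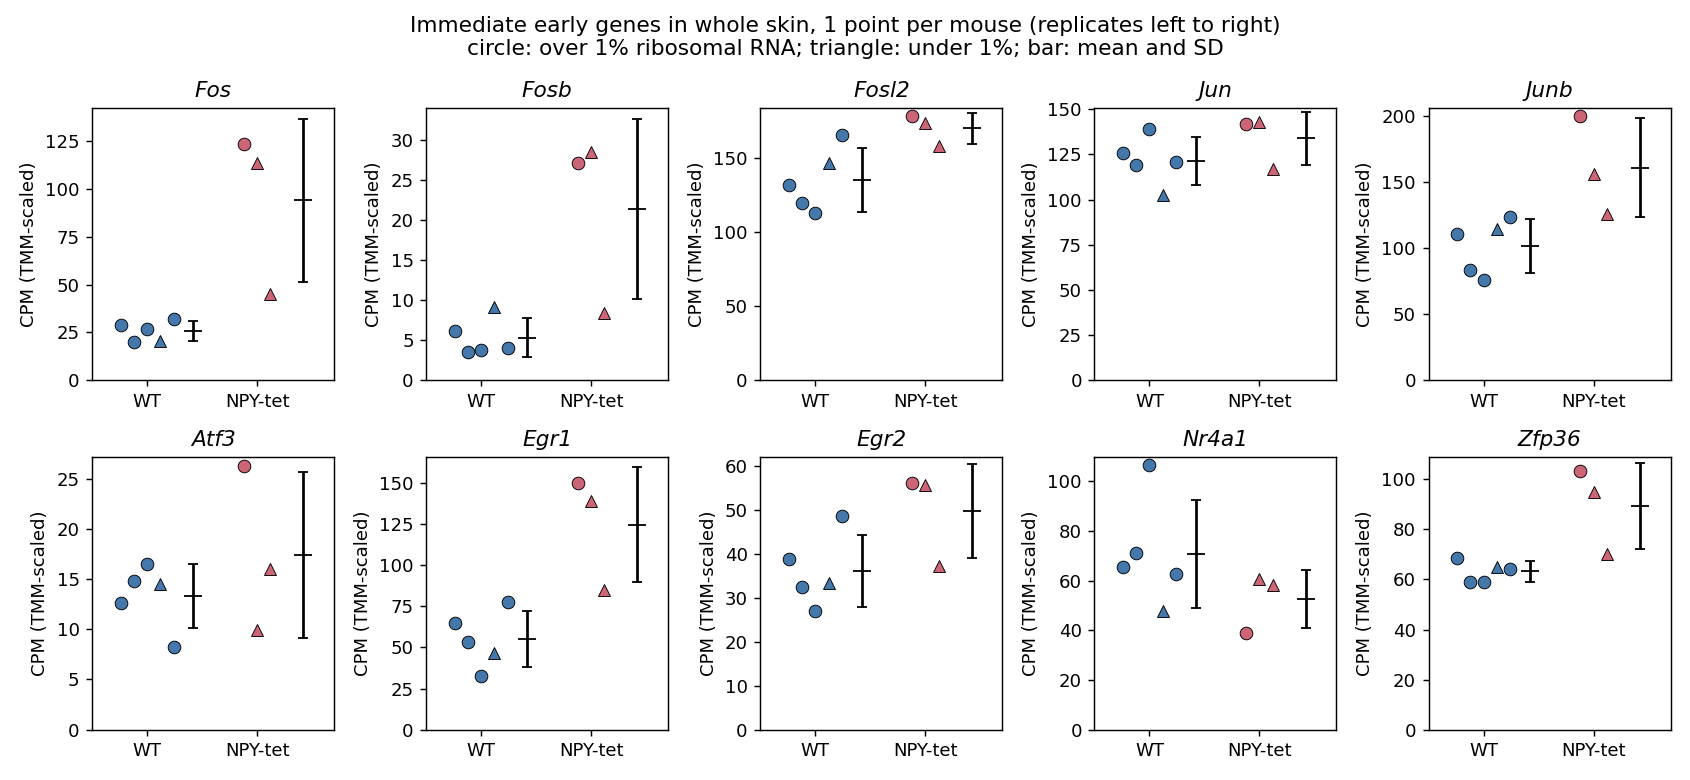
Each panel gives 1 gene with TMM-scaled CPM on the y axis and 1 point per mouse, WT in blue and NPY-tet in red, replicates from left to right; circles mark libraries over 1% and triangles libraries under 1% ribosomal RNA, and bars give the mean and SD. NPY-tet replicates 1 and 2 stand well above the WT mice for Fos, Fosb and Egr1, with replicate 3 nearer to them and, for Fosb, inside the WT range. For Fosl2, Jun, Atf3, Egr2 and Nr4a1 the groups overlap as well.

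Fos, the namesake of its family and a classic marker of recent stimulation, had the smallest p of the 10 genes and rank 7 among all 18495. Its level was 29.1, 20.1, 26.9, 20.5 and 32.2 CPM in the WT mice, in the order of replicates 1 to 5, and 123.8, 113.5 and 45.2 CPM in the NPY-tet mice, in the order 1 to 3. The groups did not overlap, and the lowest NPY-tet mouse was closer to the WT mice than to the other NPY-tet mice. The means were 25.8 ± 5.33 (SD, n = 5) and 94.2 ± 42.7 CPM (SD, n = 3), which is 3.66-fold (log2 fold change 1.87, SE 0.30). The adjusted p was 0.298 by edgeR, 0.0575 by limma-voom and 8.23e-07 by DESeq2. Without NPY-tet replicate 3 the log2 fold change was 2.21 and Fos passed by edgeR (adjusted p = 0.00134). Fos did not pass without NPY-tet replicate 1 or 2 (adjusted p = 0.685 and 0.804 by edgeR), nor with any WT mouse left out. Without NPY-tet replicate 1 the log2 fold change was 1.63, and without replicate 2 it was 1.71. Within the libraries over 1% ribosomal RNA, which hold 1 NPY-tet mouse, it was 2.21, and within those under 1%, which hold 1 WT mouse, it was 1.93. In mm39 the gene spans chr12:85520664-85524047 (plus strand).

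Because the genes moved to different degrees, promoters of those that the comparison turns on are given below. Each window runs from 250 bases before to 50 after a gene's RefSeq start, in GRCm38.p6, and 9 of the 10 genes had an entry, all but Egr1. Capitals mark matches, on either strand, to the cAMP response element TGACGTCA, its core TGACG (which the full element also contains), the AP-1 site TGANTCA, the Egr site GCGNGGGCG, the CArG box bound by serum response factor, and the TATA box TATAAA. Of all 32851 promoter windows, 1.79% hold TGACGTCA, 20.8% TGACG, 7.81% TGANTCA, 5.55% GCGNGGGCG, 1.63% a CArG box and 13.6% TATAAA. A match describes the letters only and is no measured binding site. Fos and Fosb are shown for their large ratios, Junb and Zfp36 for the lack of overlap between groups, and Nr4a1 for its opposite sign.
Fos promoter, chr12:85473640-85473939, plus strand: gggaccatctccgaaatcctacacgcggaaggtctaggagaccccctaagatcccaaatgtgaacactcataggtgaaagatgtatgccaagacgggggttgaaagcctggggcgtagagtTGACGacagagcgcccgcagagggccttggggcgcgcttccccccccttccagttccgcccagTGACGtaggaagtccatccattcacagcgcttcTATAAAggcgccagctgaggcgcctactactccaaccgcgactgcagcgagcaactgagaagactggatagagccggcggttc
Fosb promoter, chr7:19309996-19310295, minus strand: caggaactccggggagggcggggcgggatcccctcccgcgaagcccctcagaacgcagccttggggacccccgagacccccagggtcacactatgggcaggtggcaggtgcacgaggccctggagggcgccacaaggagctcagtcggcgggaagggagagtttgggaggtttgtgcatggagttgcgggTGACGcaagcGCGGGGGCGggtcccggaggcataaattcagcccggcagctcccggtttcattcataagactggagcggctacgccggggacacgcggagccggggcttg
Junb promoter, chr8:84978699-84978998, minus strand: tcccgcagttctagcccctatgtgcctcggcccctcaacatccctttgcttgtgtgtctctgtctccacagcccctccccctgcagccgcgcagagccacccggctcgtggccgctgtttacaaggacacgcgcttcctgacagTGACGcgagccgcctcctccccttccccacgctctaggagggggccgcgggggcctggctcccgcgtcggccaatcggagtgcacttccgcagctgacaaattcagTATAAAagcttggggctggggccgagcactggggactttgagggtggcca
Zfp36 promoter, chr7:28379179-28379478, minus strand: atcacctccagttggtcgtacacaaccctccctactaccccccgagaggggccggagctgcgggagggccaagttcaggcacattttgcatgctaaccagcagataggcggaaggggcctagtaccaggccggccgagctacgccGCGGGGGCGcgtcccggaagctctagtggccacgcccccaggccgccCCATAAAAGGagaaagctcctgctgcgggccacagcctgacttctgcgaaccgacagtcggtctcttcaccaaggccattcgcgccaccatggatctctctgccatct
Nr4a1 promoter, chr15:101266596-101266895, plus strand: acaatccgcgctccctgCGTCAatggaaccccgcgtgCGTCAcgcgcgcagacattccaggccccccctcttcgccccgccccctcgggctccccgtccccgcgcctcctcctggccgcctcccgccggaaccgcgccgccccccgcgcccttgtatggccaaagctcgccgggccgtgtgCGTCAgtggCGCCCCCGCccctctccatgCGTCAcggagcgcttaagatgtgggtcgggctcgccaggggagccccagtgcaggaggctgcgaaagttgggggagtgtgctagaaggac
In the Fos window the core TGACG lies at positions -129 to -125 and -66 to -62 from the start, and TATAAA at -33 to -28. Fosb holds 1 core at -60 to -56 with an Egr site at -50 to -42, and Junb 1 core at -106 to -102 with TATAAA at 1 to 6, just past the start. Nr4a1 holds 4 cores on the minus strand, the nearest at -40 to -36, and an Egr site at -60 to -52. The Zfp36 window holds no core but a CArG box at -58 to -49 and an Egr site at -105 to -97. Within these windows a CArG box was otherwise found only in Egr2, in 4 of its 5 windows, several of which overlap and hold the same box, CCATATATGG. Among the genes not shown, Atf3 also holds a core, at -7 to -3, and Fosl2 an Egr site, at -79 to -71. Cores also lie in windows of Egr2, and the Jun window holds no match. The core and the Egr site are thus not limited to the genes shown. Bases further than 250 before a start, and the promoter of Egr1, were not searched. None of the windows of these 9 genes holds TGANTCA or the full TGACGTCA.

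Fosb, a second partner of Jun proteins that neurons also make as a truncated, long-lived form, had the highest ratio and the lowest level. It stood at 6.15, 3.49, 3.75, 9.16 and 3.98 CPM in the WT mice, in replicate order, and at 27.1, 28.4 and 8.36 CPM in the NPY-tet mice. WT replicate 4 lay above NPY-tet replicate 3, so the groups overlapped. Its log2 fold change was 2.00 (SE 0.44), with an adjusted p of 0.535 by edgeR and 0.000579 by DESeq2. Within the libraries over 1% ribosomal RNA it was 2.66 and within those under 1%, where WT replicate 4 is the WT mouse, 0.99.

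Fosl2, a Fos-related gene prominent in epidermis and in fibrotic tissue, had 113.1 to 166.1 CPM in WT and 158.7 to 179.0 CPM in NPY-tet mice. Its log2 fold change was 0.33 (SE 0.14; adjusted p = 0.795 by edgeR), and WT replicate 5 lay within the NPY-tet range. With the hair follicle sum as a covariate it was 0.17.

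The groups also differed in the make-up of the Fos family, which can be compared per length in the deposited FPKM. Summed over Fos, Fosb, Fosl1 and Fosl2, the family stood at 25.6 ± 3.80 FPKM (n = 5) in WT and 60.5 ± 20.7 FPKM (n = 3) in NPY-tet mice. Fosl2 was the largest part in the 5 WT mice, at 49.1% to 59.5% of the family, and Fos took 34.3% to 48.0%. Among NPY-tet mice Fos took 69.5%, 68.0% and 51.7%, above every WT mouse, and Fosl2 24.4%, 25.3% and 44.1%, below every WT mouse. Fosb stayed at 2.02% to 6.42% of the family over the 8 mice, and Fosl1 at 0.226% to 0.572%.

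**Figure D2:**
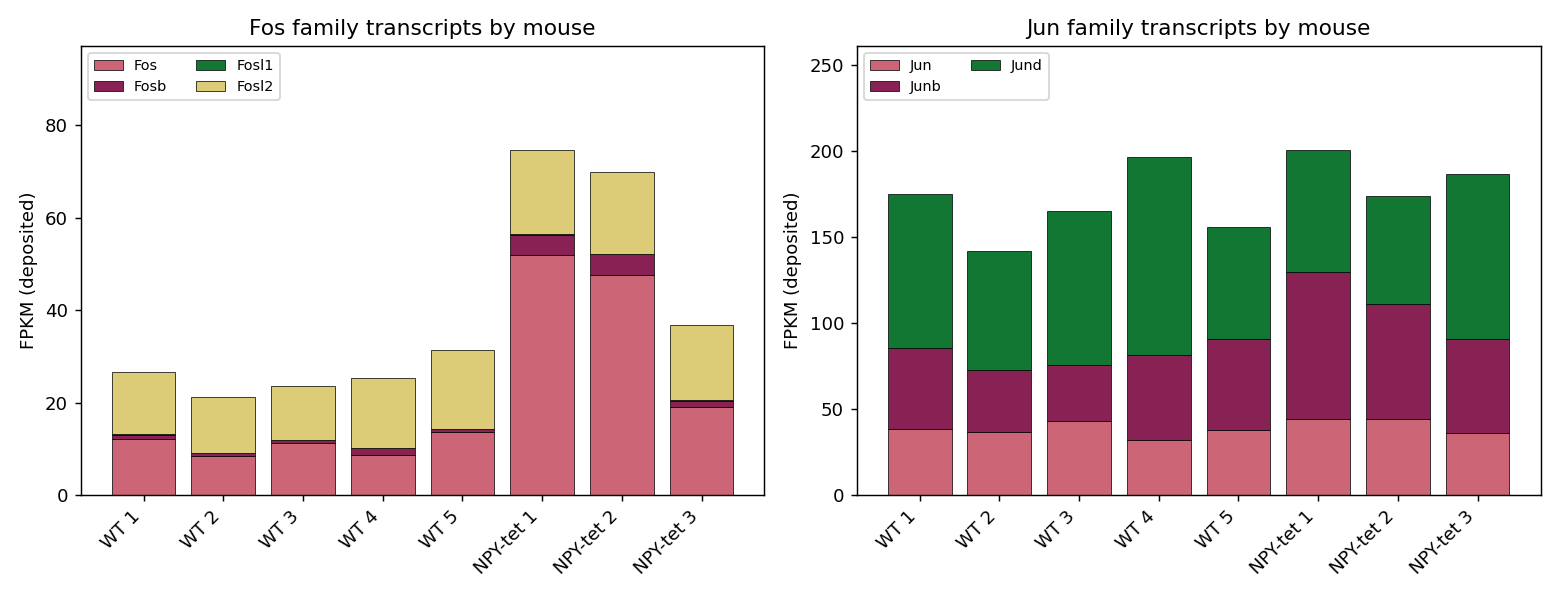
Stacked bars give the deposited FPKM of the Fos family (left) and of the Jun family (right) on the y axis, 1 bar per mouse, with colours for the genes. The Fos segment of NPY-tet replicates 1 and 2 is larger than the whole family in any WT mouse (at most 31.4 FPKM), while the Jun family runs from 141.7 to 200.9 FPKM over the 8 mice.

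Jun, the main partner of Fos, differed least. It had 102.7 to 139.0 CPM in WT and 116.8 to 142.7 CPM in NPY-tet mice, with a log2 fold change of 0.14 (SE 0.13; adjusted p = 0.844 by edgeR). An interval of 2 SE on either side runs from -0.12 to 0.41. The antisense transcript Junos overlaps the gene and had 165 to 429 counts per library, and the libraries carry no strand, so reads of the pair cannot be told apart.

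Junb, a Jun protein that restrains growth and inflammation in epidermis, stood at 110.7, 83.2, 76.2, 114.7 and 123.2 CPM in WT replicates 1 to 5. In NPY-tet replicates 1 to 3 it stood at 200.2, 156.3 and 126.0 CPM. The groups did not overlap, although NPY-tet replicate 3 lay close to the highest WT mouse. NPY-tet over WT was 1.58-fold (log2 0.66, SE 0.19; adjusted p = 0.609 by edgeR and 0.175 by DESeq2). It was 1.05 within the libraries over 1% ribosomal RNA and 0.29 within those under 1%. Junb overlaps the antisense gene Prdx2 (6055 to 11739 counts), with the same limit on strand.

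In the Jun family as a whole Jund, which is expressed steadily in most tissues, took 41.8% to 58.6% of the FPKM in WT and 35.3% to 51.6% in NPY-tet mice. The Fos family over the Jun family gave a ratio of 0.155 ± 0.028 (n = 5) in WT and 0.324 ± 0.111 (n = 3) in NPY-tet mice. NPY-tet replicate 3, at 0.197, lay below WT replicate 5, at 0.201.

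Atf3, a stress-induced zipper factor that can repress its own targets, had 8.19 to 16.5 CPM in WT and 26.3, 9.89 and 16.0 CPM in NPY-tet replicates 1 to 3. Only replicate 1 lay above the WT mice. The log2 fold change of 0.38 (SE 0.30; adjusted p = 0.821 by edgeR) was -0.039 without that mouse and 0.66 without NPY-tet replicate 2.

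Egr1, which is induced by the same kinase pathway as Fos, stood at 64.6, 53.5, 32.8, 46.8 and 77.7 CPM in WT replicates 1 to 5 and at 150.2, 138.9 and 85.2 CPM in NPY-tet replicates 1 to 3. The groups did not overlap, and the margin between WT replicate 5 and NPY-tet replicate 3 was small. The means were 55.1 ± 17.1 (n = 5) and 124.8 ± 34.7 CPM (n = 3), with a log2 fold change of 1.18 (SE 0.27) and a ratio of 2.27. The adjusted p was 0.535 by edgeR, 0.211 by limma-voom and 0.00739 by DESeq2. The log2 fold change was 1.41 within the libraries over 1% ribosomal RNA and 1.25 within those under 1%.

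Egr2, known from progenitors of the hair shaft and from myelinating Schwann cells, had 26.9 to 48.6 CPM in WT mice and 56.0, 55.5 and 37.3 CPM in NPY-tet replicates 1 to 3. NPY-tet replicate 3 lay below WT replicates 1 and 5. Its log2 fold change was 0.46 (SE 0.20; adjusted p = 0.795 by edgeR). Egr2 stood at 0.888 ± 0.124 of the FPKM of Egr1 in WT mice (n = 5) and at 0.532 ± 0.043 in NPY-tet mice (n = 3), with no overlap.

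Nr4a1 was the member with the opposite sign. It stood at 65.5, 71.3, 106.4, 47.6 and 62.6 CPM in WT replicates 1 to 5 and at 39.0, 60.5 and 58.2 CPM in NPY-tet replicates 1 to 3. NPY-tet replicate 1, the mouse with the highest Fos, had the lowest value of all, and the other NPY-tet mice lay inside the WT range. Its log2 fold change was -0.43 (SE 0.24; adjusted p = 0.796 by edgeR) and -0.24 without that NPY-tet mouse. It was -0.95 within the libraries over 1% ribosomal RNA and 0.31 within those under 1%. Nr4a1 overlaps a long noncoding RNA gene on the same strand, which had 15 to 50 counts per library.

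Zfp36, which encodes the decay factor tristetraprolin, had the tightest WT values. They were 68.7, 58.9, 58.9, 65.1 and 64.3 CPM in replicates 1 to 5, against 103.2, 94.8 and 70.2 CPM in NPY-tet replicates 1 to 3. NPY-tet replicate 3 lay just above WT replicate 1. NPY-tet over WT was 1.41-fold (log2 0.50, SE 0.14; adjusted p = 0.582 by edgeR and 0.157 by DESeq2). It was 0.74 within the libraries over 1% ribosomal RNA and 0.33 within those under 1%. Zfp36 overlaps the antisense gene Gm44710 (20 to 79 counts), with the same limit on strand as for Jun and Junb.

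**Figure D3:**
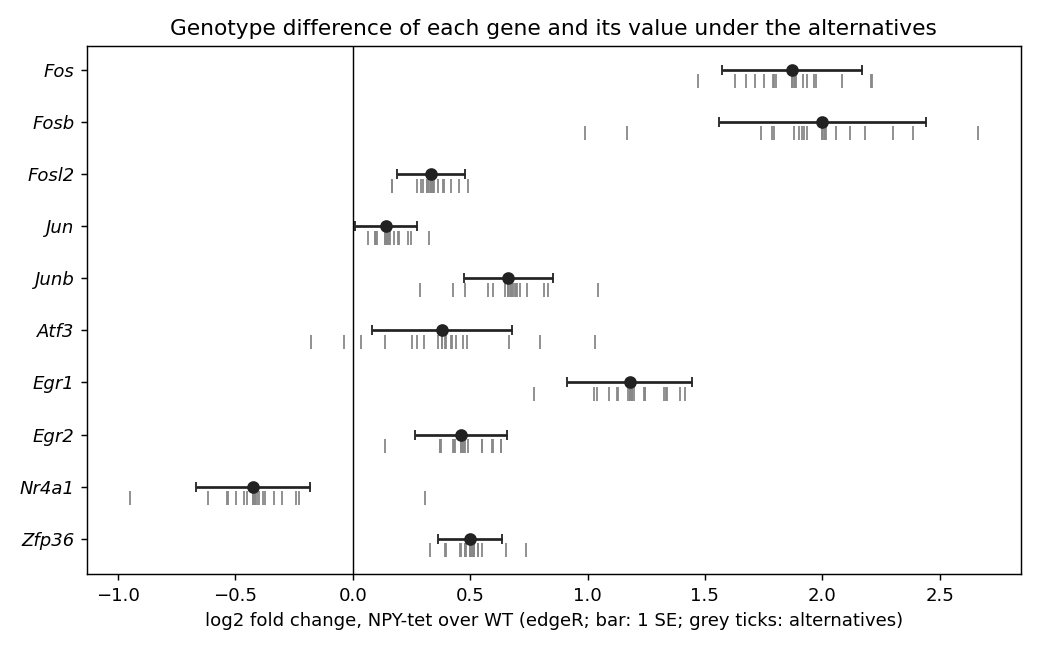
The x axis gives the log2 fold change of NPY-tet over WT by edgeR for the 10 genes, with 1 SE as the bar, and grey ticks give the same quantity under each alternative. Fos, Fosb and Egr1 stay at 0.77 or more under every alternative, and the ticks of Atf3 and Nr4a1 cross 0.

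The log2 ratio of 2 members' counts within a library, which needs no size factor, sets them side by side. The 6 pairs were chosen with the values known, so their ratios are a description, with no test. Fos against Fosl2 was -2.41 ± 0.31 in WT (n = 5) and -0.99 ± 0.72 in NPY-tet mice (n = 3), Fos against Jun -2.25 ± 0.25 and -0.63 ± 0.64, and Fos against Nr4a1 -1.43 ± 0.45 and 0.74 ± 1.03. Egr1 against Egr2 was 0.58 ± 0.19 and 1.31 ± 0.12. In these 4 pairs the 3 NPY-tet mice lay above the 5 WT mice. The pairs with Fos share its counts, and Fos and Egr1 by themselves also did not overlap between the groups. No share over other pairs of genes was computed. Junb against Jun, at -0.27 ± 0.42 and 0.24 ± 0.22, and Fos against Fosb, at 2.36 ± 0.73 and 2.21 ± 0.22, overlapped.

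Ordered by mean FPKM, WT skin ran Junb (43.6 ± 8.94), Jun (37.6 ± 3.97), Nr4a1 (19.9 ± 6.12), Zfp36 (18.0 ± 1.17), Fosl2 (13.8 ± 2.23), Egr1 (12.1 ± 3.78), Fos (10.8 ± 2.24), Egr2 (10.5 ± 2.41), Atf3 (6.12 ± 1.46) and Fosb (0.840 ± 0.381), each n = 5. Neighbours overlapped between mice except at the steps from Jun to Nr4a1, from Egr2 to Atf3 and from Atf3 to Fosb. In NPY-tet skin the order was Junb (69.0 ± 16.0), Jun (41.5 ± 4.51), Fos (39.5 ± 17.9), Egr1 (27.5 ± 7.62), Zfp36 (25.4 ± 4.85), Fosl2 (17.4 ± 1.05), Nr4a1 (14.8 ± 3.33), Egr2 (14.4 ± 3.09), Atf3 (7.97 ± 3.80) and Fosb (3.37 ± 1.77), each n = 3. Fos thus stood in place 7 in WT and in place 3 in NPY-tet skin, where it overlapped both of its neighbours.

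Summed RNA of hair follicle markers varied between the mice along with several members. The sum cannot tell the number of follicles from their state of growth or rest. The summed CPM of the 8 hair follicle markers was 225.2, 3.65, 7.51, 6.64 and 4453 in the WT mice, by replicate, and 1486, 2839 and 291.9 in the NPY-tet mice. All 8 markers had a higher fitted value in NPY-tet skin (median log2 fold change 0.84), with 0 of 8 at an unadjusted p under 0.05 by edgeR, and the sums of the groups overlapped. Within each group the mice rich in these markers, namely WT replicates 1 and 5 and NPY-tet replicates 1 and 2, had the higher Egr1 and the higher Fos. With the logarithm of the sum as a covariate, a fit chosen after seeing the data, the log2 fold change of Egr1 was 0.77 (SE 0.24), that of Fos 1.47 (SE 0.34) and that of Egr2 0.14 (SE 0.17). That of Fosb was 1.94 (SE 0.69) and that of Zfp36 0.40 (SE 0.18). Junb stood at 0.43 (SE 0.21) and Atf3 at 0.80 (SE 0.33) in this fit, and 0 of the 10 passed. WT replicate 5, with the highest sum of all, had the highest Fos and Egr1 of the WT mice, at 32.2 and 77.7 CPM, and the lowest NPY-tet values were 45.2 and 85.2 CPM. Beyond this fit, the part of hair follicle number or growth state in the genotype difference was not tested.

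**Figure D4:**
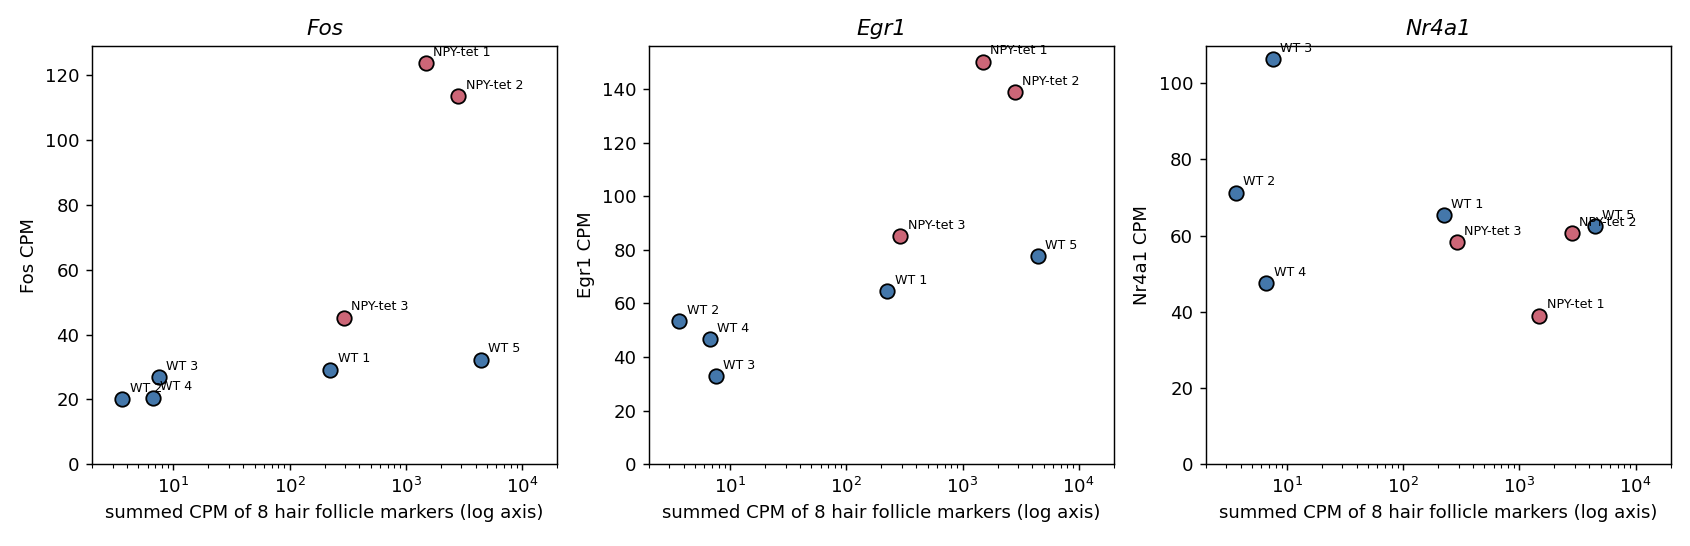
Each point is 1 mouse, with the summed CPM of 8 hair follicle markers on a log x axis and the CPM of Fos, Egr1 or Nr4a1 on the y axis, WT in blue and NPY-tet in red. Fos and Egr1 are both higher in the marker-rich mice of each group, and WT replicate 5, at 4453 CPM of markers, has 32.2 CPM of Fos and 77.7 CPM of Egr1.

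Other markers set NPY-tet replicate 1 apart. Its 5 neutrophil markers summed to 16.6 CPM, against 1.72 to 3.21 CPM in WT mice and 3.09 and 1.85 CPM in the other NPY-tet mice, and 3 of the 5 were abundant enough to be tested, all with a higher fitted value and 2 at an unadjusted p under 0.05 by edgeR (2.43% of all genes were higher at that level). Its 6 fibroblast markers summed to 2429 CPM, against 10152 to 23945 CPM in WT mice and 17741 and 25117 CPM in the other NPY-tet mice. In WT mice collagen genes carried most of the sum, with means of 5384, 4783 and 3377 CPM for Col1a1, Col1a2 and Col3a1. Dcn, also on the list, averaged 1101 ± 42.7 CPM in WT (n = 5) and 1136 ± 194 CPM in NPY-tet mice (n = 3). Of the 6 markers 2 had a higher and 4 a lower fitted value in NPY-tet skin. NPY-tet replicate 1 also had the lowest keratinocyte marker sum of all 8 mice, at 13008 CPM against 16041 to 23548 CPM in WT mice. The same held for sebaceous gland markers, at 1738 CPM against 2758 to 5462 CPM in WT mice. Of the 7 keratinocyte markers 3 had a higher and 4 a lower fitted value in NPY-tet skin. Of the 5 sebaceous gland markers 3 had a higher and 2 a lower one, and Scd1 alone averaged 4023 CPM in WT mice. Of 5 macrophage markers 4 had a lower fitted value in NPY-tet skin and 4 an unadjusted p under 0.05 by edgeR (5.98% of all genes in either direction), with sums of 395.0 to 471.4 CPM in WT and 300.8 to 435.7 CPM in NPY-tet mice. The part of these marker differences in the values of the immediate early genes was not tested. Without NPY-tet replicate 1 the log2 fold change was 1.63 for Fos, 1.80 for Fosb, 1.03 for Egr1, 0.48 for Junb and 0.39 for Zfp36.

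Among related family members outside the 10, 9 of 14 tested had a higher and 5 a lower fitted value, with a median of 0.08. By edgeR 0 passed, and by DESeq2 1 did, against 0.368% of all genes in either direction. At an unadjusted p under 0.05 by edgeR there was 1 in each direction (backgrounds of 2.43% higher and 3.55% lower). The DESeq2 call was Batf2, an interferon-inducible zipper factor that stood at 2.24 ± 0.399 CPM in WT (n = 5) and 0.980 ± 0.046 CPM in NPY-tet mice (n = 3). Its log2 fold change was -1.19 (SE 0.29; adjusted p = 0.535 by edgeR and 0.0284 by DESeq2), with every NPY-tet mouse below every WT mouse. Egr3, the third Egr gene, was at 69.6 ± 13.9 and 94.0 ± 15.6 CPM (log2 fold change 0.43, SE 0.18). Fosl1, the remaining Fos gene, had 5 to 17 counts per library, with every NPY-tet mouse above every WT mouse in CPM. Atf2, Atf4 and Zfp36l2 had log2 fold changes of 0.28, 0.15 and 0.25. Nr4a2 and Nr4a3, the relatives of Nr4a1, had log2 fold changes of 0.20 and 0.00, and Jund one of -0.16. Egr4 did not pass the filter on low counts.

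Of 35 other immediate early and stress response genes, all tested, 32 had a higher and 3 a lower fitted value, with a median of 0.26, against 50.7% of all genes above 0. By edgeR, DESeq2, limma-voom and limma on log2 FPKM 0 passed. At an unadjusted p under 0.05 by edgeR 4 of the 35 were higher, against 2.43% of all genes. These were the MAP kinase phosphatase gene Dusp1 (121.9 ± 26.6 and 168.0 ± 9.92 CPM), the antiproliferative gene Btg2 (44.5 ± 5.80 and 59.1 ± 12.6 CPM), the kinase gene Sik1 (92.2 ± 9.53 and 114.9 ± 14.5 CPM) and Ier2 (53.8 ± 9.46 and 70.1 ± 12.9 CPM). For Dusp1 and Sik1 the groups did not overlap, by a margin of 161.6 against 161.3 CPM and of 106.0 against 105.6 CPM. They were 2 of the 35, against 1.81% of all genes with every NPY-tet mouse above every WT mouse. Cebpd, a zipper factor of acute responses, and Ier5 had log2 fold changes of 0.60 and 0.30. The log2 fold changes of the 35 genes ran from -0.18 to 0.69, so that Fos, Fosb and Egr1 lay beyond the whole range.

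Upstream kinases and factors had small differences, from -0.24 to 0.25, with a median of -0.10 over 17 genes. Of these 4 had a higher and 13 a lower fitted value, against 50.7% of all genes above 0. By edgeR 0 passed, with 0 at an unadjusted p under 0.05, and 0 passed by the other tools. Srf, the serum response factor that binds CArG boxes, stood at 96.7 ± 11.9 and 83.1 ± 10.4 CPM, its cofactor gene Elk4 at 44.7 ± 4.95 and 53.3 ± 7.14 CPM, and Creb1, which binds the cAMP response element, at 24.8 ± 3.04 and 28.6 ± 4.59 CPM. Elk1 and the kinase genes Mapk9 and Rps6ka1 had log2 fold changes of -0.24, -0.23 and -0.18.

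Genes known as AP-1 targets in various tissues had a median of 0.22 over 13 tested, 10 higher and 3 lower. By edgeR 0 passed, and 2 of the 13 were higher at an unadjusted p under 0.05, against 2.43% of all genes. These were the growth factor gene Hbegf (4.32 ± 1.26 and 6.94 ± 1.82 CPM) and Tnfrsf12a, the receptor of the cytokine TWEAK (13.5 ± 1.92 and 23.0 ± 5.78 CPM), which DESeq2 called (adjusted p = 0.0452). Of all genes DESeq2 called 0.135% as higher. The keratins of stressed epidermis had log2 fold changes of 0.22 (SE 0.73) for Krt6a and 0.35 (SE 0.83) for Krt16, and the protease gene Mmp9 one of -0.59 (SE 0.44). The growth factor gene Areg, the protease inhibitor gene Timp1 and the cornified envelope gene Ivl had 0.52, -0.27 and 0.32. Mmp13 and Il6 did not pass the filter on low counts. Heat shock genes, which respond to other stresses, had a median of 0.03 over 8 genes, with 0 at an unadjusted p under 0.05 by edgeR and 0 called by any tool. Hspa1b stood at 189.7 ± 29.7 and 180.9 ± 10.6 CPM, and Hspb1, Hspa8, Hsph1, Hsp90aa1 and Bag3 had log2 fold changes of 0.22, -0.14, 0.25, 0.09 and -0.10.

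**Figure D5:**
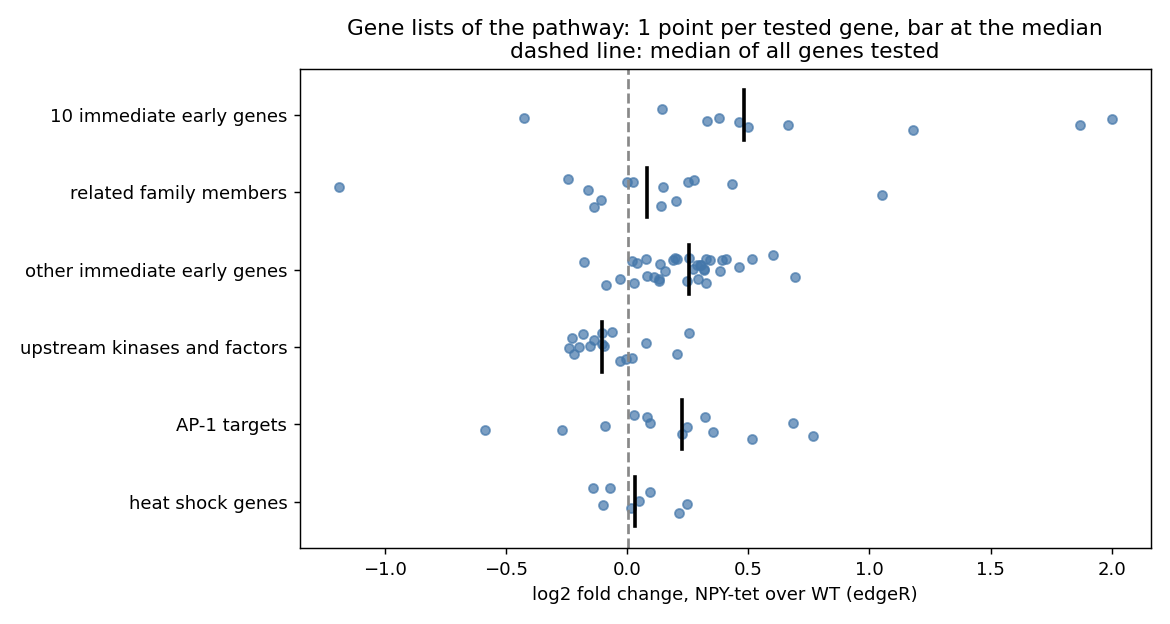
Each point is a tested gene, with its log2 fold change of NPY-tet over WT by edgeR on the x axis and its list on the y axis; black bars mark list medians and the dashed line the median of all genes tested. The 35 other immediate early genes lie mostly to the right of 0 within a narrow range, and Fosb, Fos and Egr1 stand out at 2.00, 1.87 and 1.18.

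The genes whose profile over the 8 mice was most like that of Fos, by the root mean square difference of mean-centred log2 CPM among the 11837 tested genes that averaged 5 CPM or more, included 2 other members. In order they were Serpina3j (0.40), Zic1 (0.41), Egr1 (0.45), Pde3a (0.48), Ankrd2 (0.50) and Fosb (0.53). Serpina3j is a protease inhibitor gene of a multicopy cluster, Zic1 a zinc finger factor, Pde3a a cAMP-degrading phosphodiesterase and Ankrd2 a stretch-responsive muscle gene. Junb held rank 28 in likeness to Fos, Zfp36 rank 74, Egr2 rank 75, Fosl2 rank 557, Jun rank 1538, Atf3 rank 5308 and Nr4a1 rank 10767. Nearest to Egr1 were Ehf (0.25), an epithelial Ets factor, Pde3a (0.27), Taf1d (0.28), Yod1 (0.31), Nfkbiz (0.32), a nuclear regulator of NF-kB targets, and Trpv3 (0.33), a warmth-gated channel of keratinocytes. Junb held rank 13 and Egr2 rank 32 in likeness to Egr1, and Fos rank 119. These distances share the size factors of the libraries, and no test was made of them.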

How the data were processed

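The deposited table of counts gives raw whole-number values for each Ensembl gene in each of the 8 mice. Its companion, the deposited FPKM, is proportional to those counts after division by the listed gene length and a library size, a step made by the authors. Per the submitters' processing notes, featureCounts 1.5.0-p3, DESeq2 1.20.0, HISAT2 2.0.5, CASAVA and mm39 were used. Their roles and the annotation release are not given in the sources used here. Columns were joined to mice by title. For samples 3 to 8 the mouse number in the description is higher by 1, and the genotype is the same.

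Counts were tested in R 4.3.3 with edgeR 4.0.16: genes kept by filterByExpr, TMM factors, the quasi-likelihood test with robust dispersions and no term beside genotype, two-sided, Benjamini-Hochberg adjustment over 18495 genes, threshold 0.05. The common biological coefficient of variation was 0.318. SE is the log2 fold change over the square root of F. Each library is 1 mouse. At 31370433 to 47495565 counts per library, counting error is small beside the spread between mice for genes above a few CPM. DESeq2 1.42.0 (on the same genes), limma 3.58.1 (voom with quality weights, and log2 FPKM with pseudocounts of 1 and 0.1), other size factors and filters, the replicate number as a block, ribosomal RNA content and each library left out were alternatives. The procedures were tested on simulated data.

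The members and gene lists were chosen with earlier results of these data known, so no list test was made. Named genes were the 10 members, Npy, from each of 5 lists the 6 genes with the smallest p, and the 6 genes nearest to Fos and to Egr1. Jund, Nr4a2, Nr4a3, Egr4, Krt6a, Krt16, Mmp13 and Il6 lie outside that rule and were chosen after their values were seen, as were the 6 ratios. Col1a1, Col1a2, Col3a1, Dcn and Scd1, named from the marker lists, and the genes that overlap a member also lie outside that rule. The hair follicle covariate is log2 of the summed CPM plus 1. No protein sequences were used here.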

Additional observations from a re-analysis of the deposited data

How the results depend on the processing

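Of 230 values of single members under the alternatives, 219 kept their direction and their side of the threshold, 8 newly passed and 3 changed sign. The count of all genes past the threshold, 1 by edgeR, was 21 with no filter on low counts, 68 by DESeq2, 3 by limma-voom, 2 by limma on log2 FPKM with either pseudocount, 11 with a term for the ribosomal RNA set, 332 in the libraries over 1% ribosomal RNA alone and 227 in those under 1% alone. It was 2 at an adjusted p under 0.1 and 1 to 8 with each library left out, 8 being without NPY-tet replicate 3. The count of members past the threshold, 0 by edgeR, was 3 by DESeq2, which called 0.368% of all genes. It was 0 to 1 with each library left out, 1 being Fos without NPY-tet replicate 3. The 8 values that newly passed include members in the fits within either ribosomal RNA set. Within either set 1 group is a lone mouse, taken to vary like the other group. The members' median of 0.48 was 0.88 in the libraries over 1% ribosomal RNA, 0.33 in those under 1% and 0.38 to 0.64 with each library left out. Atf3 was -0.18 in the libraries under 1% ribosomal RNA and -0.039 (without NPY-tet replicate 1) to 0.66 with each library left out, and Nr4a1 was 0.31 in the libraries under 1%. The cause of these changes was not tested. With the replicate number as a block 2 genes passed in place of 1, and 0 members. Deviations of same-numbered mice correlated at -0.04, -0.11 and 0.30 across genes, which is too few values to decide whether the numbers pair the mice. The block changed no call of a member, and with it the SE was 0.13 for Egr1 and 0.34 for Fos. With 5 and 3 mice, depth was not the limit for these genes, apart from Fosl1.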
